A study of Mus musculus with 40 samples.

Results

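Mouse embryonic stem cells were compared by RNA-seq for 39 genes of DNA replication and nucleotide supply. They encode 5 subunits of the origin recognition complex, 2 loading factors, the 6 MCM subunits, 6 activators of the helicase, 6 polymerase and primase subunits, the sliding clamp with 5 clamp loader subunits, 2 single-strand binding subunits, 3 enzymes of Okazaki fragments and uracil removal, and 3 enzymes that make deoxynucleotides. The genes were chosen by name from the 23240 symbols of the deposited tables, with earlier results of these data known, and all 39 were found. Their counts and medians below are therefore descriptions of a list that was not chosen blind. Each stood at 7.34 RPKM or more in every library, so all 39 passed the filter on low values. RPKM is the read count scaled for gene length and for the mapped reads of the library.

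The 4 groups held 2 libraries each, and 8 libraries in all were analysed. They were wild type cells, untreated; wild type cells given 1 uM all-trans retinoic acid (RA); cells homozygous for the mutation labelled GLP 3A, untreated; and GLP 3A cells given 1 uM RA. LIF, the factor that keeps stem cells self-renewing, was withdrawn when RA was added, so effects of RA and of LIF withdrawal cannot be told apart. How long the treatment lasted is not stated. All 4 groups carry the strain label C57BL/6 (mixed) and were moved from feeder cells to feeder-free 2i medium for 2 passages. The standard medium used before that contained nucleosides. Ehmt1 encodes GLP, an enzyme that methylates lysine 9 of histone H3, and the series is about how GLP helps to propagate histone marks. Labels of other samples in the series describe gene targeting in R1 stem cells, screened clones and chimeras crossed to C57BL/6 mice, and do not say how many clones stand behind either line. The labels do not tell whether the 2 libraries of a group were separate cultures, and every p-value here reflects the spread between libraries, which may be technical.

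Replication is prepared in G1, when the origin recognition complex, Cdc6 and Cdt1 load the ring of Mcm2 to Mcm7 onto DNA. In S phase Mcm10, Cdc45 and the GINS complex turn the ring into a working helicase, primase and the polymerases copy the strands, and Pcna, loaded by the RFC complex, holds the polymerases on the template. Ribonucleotide reductase and thymidylate synthase supply the building blocks, and many of these genes are transcribed under E2F factors. Mouse embryonic stem cells have a short G1 and spend much of their cycle in S phase, and the share of cells in each phase was not measured here. In bulk RNA, fewer cells with a transcript and less of it per cell cannot be told apart.

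The cell type was checked first. The 10 pluripotency markers summed to between 3480 and 3500 RPKM in the untreated wild type and between 3060 and 3210 in untreated GLP 3A, against 68.7 to 87.4 and 81.6 to 122 with RA. These sums hide differences between the genotypes. Without RA, Zfp42 had 313.7 and 290.1 RPKM in wild type libraries but 66.4 and 63.2 in GLP 3A ones. It was the 1 marker called lower in GLP 3A, at -2.20, with 0 called higher. With RA 3 of the 10 were called higher in GLP 3A and 0 lower. The median difference of their responses to RA, GLP 3A minus wild type, was 1.5, with 1 called higher. The 6 RA targets were at 3.42 to 3.7 and 6.96 to 7.27 RPKM without RA and at 667 to 701 and 452 to 612 with it. Ehmt1, the mutated gene, was measured as RNA only, which does not check the mutation itself. It was at 18.4 and 17.6 RPKM in untreated wild type, against 14.1 and 14.3 in untreated GLP 3A, and at 24.4 and 23.5 against 13.0 and 13.9 with RA. Ehmt1 was called lower in GLP 3A in both states, at -0.32 and -0.79. The untreated call ended when any 1 untreated library was left out, where the difference ran from -0.35 to -0.29. From the 4 RA libraries alone the call with RA ended, at -0.79. Markers of other cell types moved with RA too. The 7 fibroblast or feeder markers summed to 4.33 to 4.85 RPKM in untreated and 95 to 101 in RA-treated wild type, and 4.65 to 5.78 and 78.5 to 119 in GLP 3A, with Lum at 0 in both untreated groups. Thy1, the highest of these markers untreated, instead fell to 32.1% of its untreated mean in wild type and 32.4% in GLP 3A. The 5 endoderm markers summed to at most 1.4 RPKM untreated and to 30.8 to 75 in wild type and 23.3 to 39.6 in GLP 3A with RA. The 5 trophoblast markers were at 28.4 to 29.1 RPKM untreated and 680 to 732 with RA in wild type, against 44.4 to 46.2 and 836 to 1410 in GLP 3A, and the level with RA was nearly all Krt8 and Krt18. The 4 neural markers measured were at 26.6 to 27.6 and 45.4 to 48.7 RPKM untreated and 67.8 to 80.3 and 60.6 to 68.4 with RA, but Tubb3, the highest of them untreated, fell from 24.6 and 23.6 to 11.2 and 11.6 in wild type and from 44.2 and 41.0 to 14.9 and 13.7 in GLP 3A. Eomes, in the trophoblast list, fell from 8.21 and 7.38 to 0.35 and 0.23 and from 5.81 and 5.26 to 0.65 and 0.23. The 4 mesoderm markers summed to at most 8.63 RPKM in any library, and moved in both directions. T fell with RA from 3.58 and 3.46 to 1.12 and 1.67 in wild type and from 8.11 and 7.44 to 0.82 and 1.66 in GLP 3A. Kdr rose from 0.09 and 0.08 to 2.59 and 1.11 and from 0.20 and 0.14 to 2.28 and 1.68. Of the 3 blood markers the files held only Ptprc, which did not exceed 0.02 RPKM. The part of changed cell types in the results below was not tested. The sum of all RPKM also moved, from between 748556 and 822877 in the untreated libraries to between 509341 and 554854 with RA.

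Replication genes fell with RA in both genotypes. Their RPKM summed to 3721.1 and 3674.7 in the untreated wild type libraries and to 2048.7 and 2067.6 with RA, or 55.1% and 56.3% of the untreated level by replicate number. In GLP 3A the sum went from 3735.5 and 3681.4 to 1847.5 and 1862.7, or 49.5% and 50.6%. Differences were tested with limma on log2(RPKM + 1), and a gene was called at a Benjamini-Hochberg adjusted p under 0.05 over the 13198 genes tested. In wild type 33 of the 39 genes were called lower and 0 higher, against 34.8% of all genes tested called lower and 33.7% called higher. In GLP 3A 35 were called lower and 0 higher, against 38.1% and 32.3%. The median log2 difference of the 39 was -0.76 in wild type and -0.88 in GLP 3A, where that of all genes tested was -0.03 and -0.07. At least a 2-fold fall was called for 11 of the 39 in wild type and 16 in GLP 3A. Of the 13198 genes tested, 3388 in wild type and 3570 in GLP 3A were called at 2-fold or more in either direction. Both RA-treated libraries lay below both untreated ones for 36 genes in wild type, against 44% of all genes tested, and for 37 in GLP 3A, against 45.6%.

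**Figure D1:**
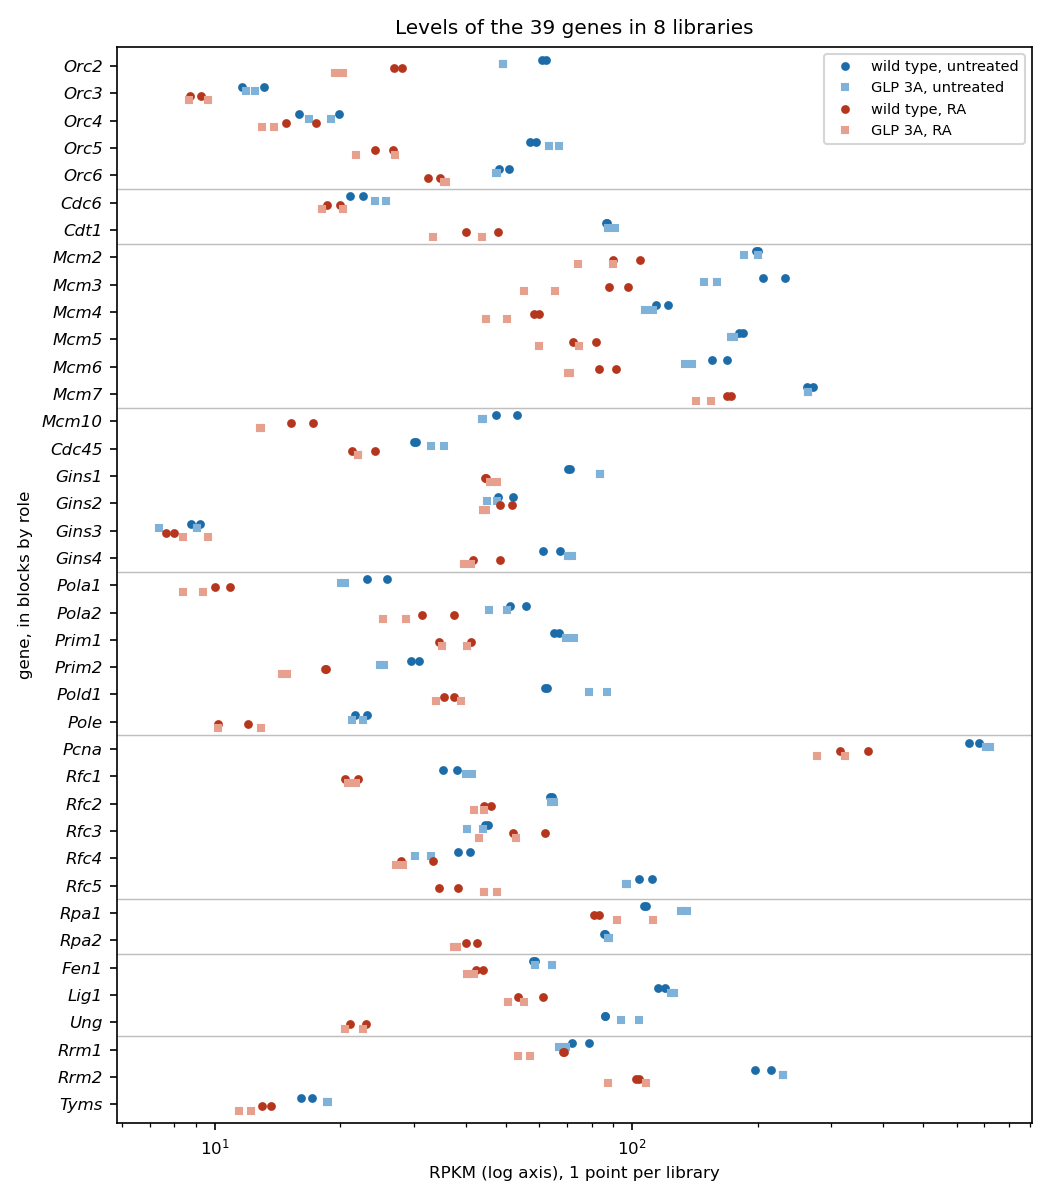
RPKM of the 39 genes (log axis) in each of the 8 libraries, 1 point per library, with the genes in blocks by role. Untreated libraries are blue and RA-treated ones red, circles are wild type and squares GLP 3A, and most red points lie to the left of the blue ones, from Pcna at 642.1 to 723.5 RPKM untreated down to Gins3 under 10 RPKM.

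The size of the fall depends on how the libraries are scaled, because the RPKM totals were lower with RA. When each library was scaled to the same RPKM total, the median of all genes tested rose to 0.37 in wild type and 0.48 in GLP 3A, and that of the 39 genes to -0.29 and -0.27. The members were then called lower in 22 cases and higher in 4 in wild type, and lower in 20 and higher in 6 in GLP 3A. The gap between the median of the members and the median of all genes was -0.73 in wild type as deposited and -0.66 with equal totals, and -0.81 and -0.75 in GLP 3A. As a share of each library's RPKM total the members went from 0.497% and 0.482% to 0.387% and 0.373% in wild type and from 0.454% and 0.476% to 0.363% and 0.363% in GLP 3A. In every one of the alternative analyses run, 22 of the 33 wild type calls and 20 of the 35 GLP 3A calls held with the same direction.

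**Figure D2:**
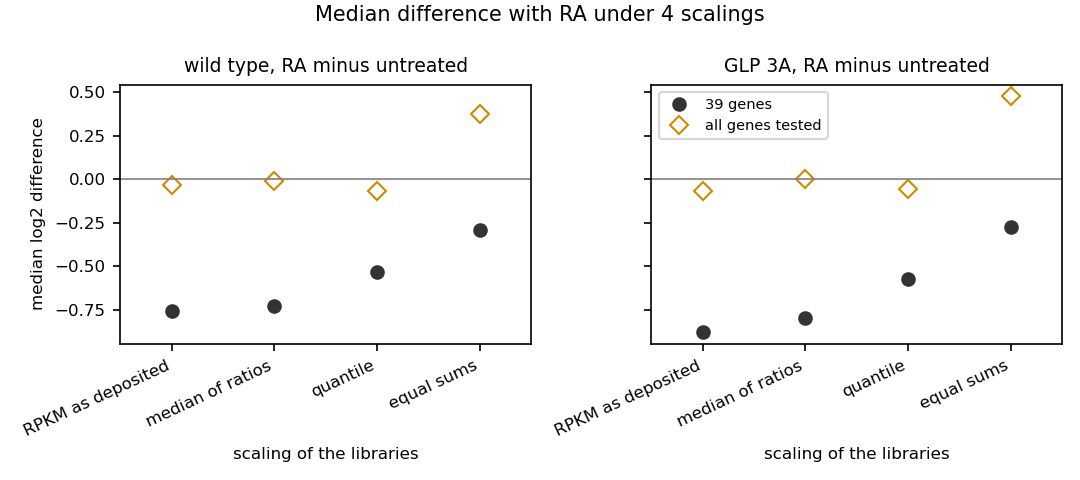
Median log2 difference with RA of the 39 genes (filled circles) and of all genes tested (open diamonds) in wild type (left) and GLP 3A (right) under 4 ways of scaling the libraries. The members lie below all genes under each scaling, and with equal sums both medians move up, the members to -0.29 and -0.27.

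**Figure D3:**
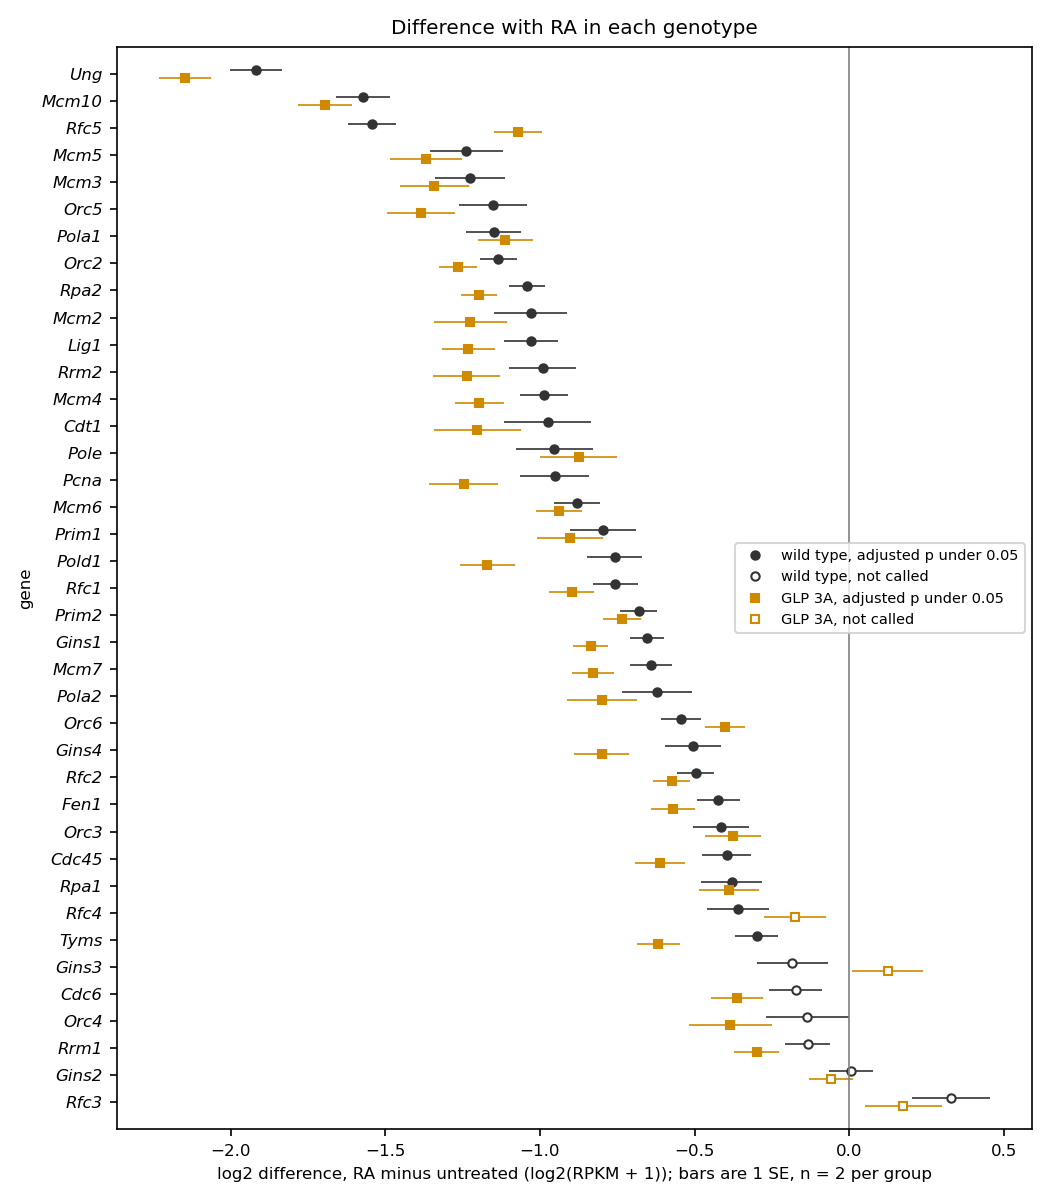
Log2 difference in log2(RPKM + 1) between RA-treated and untreated cells for the 39 genes, in wild type (circles) and GLP 3A (squares), ordered by the wild type value; bars are 1 SE (n = 2 per group) and filled symbols were called. The values run from -1.92 in wild type and -2.15 in GLP 3A for Ung to 0.33 and 0.17 for Rfc3, whose symbols are open.

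Promoters of the members are shown because E2F factors are known to act on many of these genes and the genes fell together. RefSeq promoters (GRCm38.p6, 250 bases before to 50 after the start of transcription) matched 32 of the 39 symbols, and the first listed start was used where a gene had several. The letters searched on both strands were TTTCCCGC, TTTGGCGC, TTTCGCGC and TTTGCCGC for E2F and CCAAT for the CCAAT box. An E2F match was found in 11 of the 32 members (34.4%), against 2.32% of all 27025 genes in the table and 4.26% of the 9258 that were also tested here. CCAAT was found in 19 of 32 (59.4%), against 37.9% and 39.3%. The members' promoters had a median GC content of 60.7%, and those of the tested genes 61.3%. Mcm5 and Mcm6 hold E2F letters on both strands that overlap in 1 short run. They were picked after the matches were seen, and 60 bases of each are printed with the matches in capitals:
Mcm5, chr8:75109332-75109391, plus strand: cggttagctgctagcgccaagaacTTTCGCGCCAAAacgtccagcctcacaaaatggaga
Mcm6, chr1:128359780-128359839, minus strand: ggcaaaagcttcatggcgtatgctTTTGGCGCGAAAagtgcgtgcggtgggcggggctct

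The 3 members with the largest called fall in wild type, Ung, Mcm10 and Rfc5, had no E2F match in their window, nor did Rrm1 and Orc4, the 2 with the smallest difference among those with a promoter, or Pcna. Rfc3, the member with the highest value at 0.33, had 2 E2F matches and 1 CCAAT in its window and is not printed. The 250 bases before each start are printed to set the largest falls and smallest differences side by side, with CCAAT or its reverse complement ATTGG in capitals. Mcm10, with a large fall, and Rrm1, with a small difference, each show 2 CCAAT runs here, Pcna 1 and the others none:
Ung, chr5:114130185-114130434, plus strand: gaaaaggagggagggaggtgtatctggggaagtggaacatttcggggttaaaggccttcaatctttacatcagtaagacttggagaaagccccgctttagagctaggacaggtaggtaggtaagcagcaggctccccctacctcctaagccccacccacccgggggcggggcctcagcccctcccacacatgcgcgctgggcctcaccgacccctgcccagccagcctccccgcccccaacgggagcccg
Mcm10, chr2:5012792-5013041, minus strand: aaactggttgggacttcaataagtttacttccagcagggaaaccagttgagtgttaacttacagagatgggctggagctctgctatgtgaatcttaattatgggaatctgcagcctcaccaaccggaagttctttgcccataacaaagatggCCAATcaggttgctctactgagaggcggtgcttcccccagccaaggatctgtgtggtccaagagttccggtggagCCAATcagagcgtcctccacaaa
Rfc5, chr5:117389024-117389273, minus strand: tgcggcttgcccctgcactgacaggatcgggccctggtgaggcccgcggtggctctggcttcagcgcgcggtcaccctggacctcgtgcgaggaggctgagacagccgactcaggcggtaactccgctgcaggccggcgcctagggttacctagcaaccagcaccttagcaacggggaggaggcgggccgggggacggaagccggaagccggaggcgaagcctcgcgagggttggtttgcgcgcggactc
Rrm1, chr7:102441445-102441694, plus strand: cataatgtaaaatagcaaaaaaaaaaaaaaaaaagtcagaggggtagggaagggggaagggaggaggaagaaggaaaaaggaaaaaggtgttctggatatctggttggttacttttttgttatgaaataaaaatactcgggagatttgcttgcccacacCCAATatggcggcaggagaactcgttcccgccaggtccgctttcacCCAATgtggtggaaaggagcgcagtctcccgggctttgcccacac
Orc4, chr2:48950082-48950331, minus strand: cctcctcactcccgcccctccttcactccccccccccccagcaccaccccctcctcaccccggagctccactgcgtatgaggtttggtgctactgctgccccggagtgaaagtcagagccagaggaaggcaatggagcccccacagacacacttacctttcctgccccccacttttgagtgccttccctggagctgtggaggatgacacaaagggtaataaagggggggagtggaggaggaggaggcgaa
Pcna, chr2:132253181-132253430, minus strand: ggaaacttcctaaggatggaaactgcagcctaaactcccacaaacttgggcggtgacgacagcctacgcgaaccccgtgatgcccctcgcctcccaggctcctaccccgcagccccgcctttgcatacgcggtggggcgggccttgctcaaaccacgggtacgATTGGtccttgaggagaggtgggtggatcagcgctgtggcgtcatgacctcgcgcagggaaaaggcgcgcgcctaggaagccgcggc

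The 11 members with E2F letters had a median wild type difference of -0.76, ranging from -1.24 to 0.33, and 8 of them were called lower. The 21 without had a median of -0.80, ranging from -1.92 to -0.14, and 19 were called lower. These are descriptions of letters in 1 window per gene, and the factors' binding was not measured.

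Origin recognition came apart into 2 sets. Orc2, a core subunit, was at 62.1 and 61.0 RPKM in the untreated wild type and 26.9 and 28.1 with RA, and at 49.0 and 49.0 falling to 19.4 and 20.3 in GLP 3A. All RA values lay below all untreated values. Its log2 difference was -1.14 ± 0.06 (SE, n = 2 per group, limma adjusted p = 2.1e-05) in wild type and -1.27 ± 0.06 (adjusted p = 1.6e-05) in GLP 3A. Orc5, another core subunit, went from 57.0 and 58.8 RPKM to 24.2 and 26.8 in wild type and from 63.3 and 66.9 to 21.8 and 27.0 in GLP 3A, with log2 differences of -1.15 ± 0.11 (adjusted p = 0.00019) and -1.39 ± 0.11 (adjusted p = 8.9e-05). Orc5 shares its locus with Gm15421 in the deposited table, so its reads may be split. The other subunits moved less: Orc6 by -0.55 and -0.40 and Orc3 by -0.42 and -0.38, called in both genotypes. Orc4 was at 15.9 and 19.9 RPKM untreated and 14.8 and 17.5 with RA in wild type, where the groups overlapped and it was not called (log2 difference -0.14 ± 0.13, adjusted p = 0.401). In GLP 3A Orc4 was at 16.8 and 19.0 and then 13.0 and 13.9, called lower at -0.39 ± 0.13 (adjusted p = 0.039), a call that ended without either GLP 3A untreated library or either GLP 3A RA library. With equal totals Orc3 moved to 0.02 and 0.21 and Orc4 and Orc6 to 0.22 in GLP 3A, and the Orc6 call ended in wild type. Orc6 was then called higher in GLP 3A, Orc3 and Orc4 in neither direction. Quantile normalization ended the GLP 3A calls of Orc4 and Orc6, median-of-ratios scaling that of Orc4, and leaving out GLP 3A untreated replicate 1 that of Orc3. Orc3 shares its locus with Akirin2 and Orc4 with Acvr2a. By level, Orc2 was the highest of the 5 in untreated wild type and Orc5 in untreated GLP 3A, Orc6 was the highest in all 4 RA libraries, and Orc3 the lowest in all 8.

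The 2 loading factors differed in size of response. Cdt1, which brings the MCM ring to the origin, was at 86.6 and 87.1 RPKM in untreated and 47.8 and 40.0 in RA-treated wild type, and at 90.9 and 87.5 and then 43.8 and 33.3 in GLP 3A. Its log2 difference was -0.98 ± 0.14 (adjusted p = 0.0011) in wild type and -1.20 ± 0.14 (adjusted p = 0.00042) in GLP 3A. Cdc6, the ATPase that works with it, was at 22.7 and 21.1 RPKM untreated and 20.0 and 18.6 with RA in wild type, a difference of -0.17 ± 0.09 that was not called (adjusted p = 0.111). In GLP 3A it went from 25.7 and 24.2 to 20.3 and 18.1, called at -0.36 ± 0.09 (adjusted p = 0.00844), and the call ended without GLP 3A untreated replicate 1 and under quantile normalization. With equal totals Cdc6 stood at 0.28, called higher, in wild type and at 0.25, not called, in GLP 3A.

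All 6 subunits of the MCM ring fell in both genotypes. Mcm3 was at 233.2 and 205.8 RPKM in the untreated wild type and 98.0 and 88.3 with RA. Mcm5 went from 180.7 and 184.9 to 81.9 and 72.2, and Mcm2 from 200.3 and 198.5 to 104.7 and 90.1. These 3 subunits were left at 42.4%, 42.2% and 48.8% of the untreated mean. Mcm4 went from 121.9 and 114.3 RPKM to 59.9 and 58.2, and Mcm6 from 168.6 and 155.9 to 91.7 and 83.6. Mcm7, the most abundant, went from 263.1 and 271.8 to 172.9 and 169.1. The wild type log2 differences ran from -1.24 ± 0.12 for Mcm5 (limma adjusted p = 0.00019) to -0.64 ± 0.07 for Mcm7 (adjusted p = 0.00029). In GLP 3A they ran from -1.37 ± 0.12 for Mcm5 (adjusted p = 0.00012) to -0.83 ± 0.07 for Mcm7 (adjusted p = 9.9e-05), and no RA library overlapped an untreated one for any subunit. Mcm7 shares its locus with Mir106b, Mir25 and Mir93, and its call ended in both genotypes when totals were made equal. Levels per length were not equal within the ring: Mcm7 was the highest and Mcm4 the lowest in all 8 libraries, and their ratio was 2.16 and 2.38 in untreated wild type, 2.88 and 2.91 with RA, 2.36 and 2.45 in untreated GLP 3A and 3.19 and 3.07 with RA.

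Helicase activators held both a large fall and genes that did not pass the test. Mcm10, which helps to start the loaded helicase, was at 53.0 and 47.3 RPKM untreated and 17.2 and 15.2 with RA in wild type. In GLP 3A it was at 43.9 and 43.6 and then 12.9 and 12.8. That left 32.3% and 29.3% of the untreated mean, with log2 differences of -1.57 ± 0.09 (adjusted p = 2.5e-05) and -1.69 ± 0.09 (adjusted p = 2e-05). Cdc45, which binds the ring, was called lower at -0.40 ± 0.08 in wild type and -0.61 ± 0.08 in GLP 3A, and stood at 0.06 and 0.01 with equal totals. The subunits of the GINS complex, which act as 1 unit, gave different values. Gins1 was at 71.0 and 70.3 RPKM and then 44.4 and 44.7 in wild type, and 83.8 and 83.9 and then 45.7 and 47.4 in GLP 3A, called at -0.65 ± 0.06 (adjusted p = 0.00012) and -0.84 ± 0.06 (adjusted p = 4.8e-05). Gins4 was called at -0.51 ± 0.09 and -0.80 ± 0.09, and not with equal totals. Gins2 was at 47.8 and 51.8 RPKM untreated and 48.4 and 51.6 with RA in wild type, where the groups overlapped, and at 47.5 and 44.9 and then 44.6 and 44.0 in GLP 3A. Its differences of 0.01 ± 0.07 (adjusted p = 0.963) and -0.06 ± 0.07 (adjusted p = 0.494) were not called, and its locus is shared with Gse1. With equal totals Gins2 was called higher in both genotypes, at 0.47 and 0.57, and under quantile normalization likewise, at 0.22 and 0.29. Gins3 lay between 7.34 and 9.61 RPKM in all 8 libraries and was not called in either genotype (-0.18 ± 0.11 and 0.12 ± 0.11). With equal totals Gins3 was called higher in GLP 3A, at 0.70, and under quantile normalization lower in wild type, at -0.31. Gins1 was thus 7.70 and 8.02 times as high as Gins3 in untreated wild type and 5.81 and 5.61 times with RA.

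The 6 polymerase and primase genes all fell in both genotypes. Pola1, the catalytic subunit of the polymerase that starts each fragment, was at 25.8 and 23.2 RPKM untreated and a mean of 10.5 ± 0.64 (SD, n = 2) with RA in wild type, and 20.5 and 20.1 and then 8.40 and 9.35 in GLP 3A, with log2 differences of -1.15 ± 0.09 (adjusted p = 8.5e-05) and -1.11 ± 0.09 (adjusted p = 9.3e-05). Pola2, its partner, went from 55.6 and 51.1 to 37.4 and 31.4 in wild type, at -0.62 ± 0.11. Pole, the catalytic subunit for the leading strand, went from 23.2 and 21.7 RPKM to 12 and 10.2 in wild type and from 21.3 and 22.6 to 12.9 and 10.2 in GLP 3A. Pold1, the catalytic subunit for the lagging strand, went from 61.9 and 62.6 to 37.4 and 35.4 in wild type and from 87.3 and 79.0 to 38.9 and 33.9 in GLP 3A. The RA libraries of both genotypes thus lay together for Pold1, although the untreated ones did not. Prim1 and Prim2, the primase pair, were called at -0.80 and -0.68 in wild type, and in GLP 3A at -0.90 and -0.74. With equal totals Pola2 lost its call in both genotypes, and Prim2 and Pole lost theirs in GLP 3A.

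The clamp fell while its loader divided. Pcna, the sliding clamp and the most abundant of the 39, was at 642.1 and 680.1 RPKM in the untreated wild type and 315.6 and 368.1 with RA, and at 705.3 and 723.5 and then 278.3 and 324.4 in GLP 3A. Its log2 difference was -0.95 ± 0.11 (adjusted p = 0.00045) in wild type and -1.25 ± 0.11 (adjusted p = 0.00014) in GLP 3A, leaving 51.7% and 42.2% of the untreated mean. Rfc5, a small subunit of the loader, was at 111.6 and 104.0 RPKM and then 38.2 and 34.5 in wild type, and in GLP 3A at 97.3 and 97.0 and then 47.4 and 44.1, with differences of -1.54 ± 0.08 (adjusted p = 1.9e-05) and -1.07 ± 0.08 (adjusted p = 6.8e-05). Rfc3, another small subunit, was at 44.4 and 45.3 RPKM untreated and 51.8 and 62.0 with RA in wild type, where both RA libraries lay above both untreated ones, and at 40.2 and 43.9 and then 43.0 and 52.6 in GLP 3A, where they overlapped. Its differences of 0.33 ± 0.13 (adjusted p = 0.0546) and 0.17 ± 0.13 (adjusted p = 0.254) were not called, and the wild type one was called higher under 9 of the 20 alternatives run. With equal totals Rfc3 was called higher in both genotypes at 0.80. Rfc5 was 2.52 and 2.29 times as high as Rfc3 in untreated wild type and 0.74 and 0.56 times with RA. In GLP 3A that ratio went from 2.42 and 2.21 to 1.10 and 0.84. Rfc1, the large subunit, was called at -0.76 ± 0.07 and -0.90 ± 0.07, and Rfc2 at -0.50 ± 0.06 and -0.57 ± 0.06. Rfc4, whose locus is shared with Eif4a2 and 2 small nucleolar RNAs, was called in wild type at -0.36 ± 0.10 (adjusted p = 0.0178) and not in GLP 3A at -0.18 ± 0.10 (adjusted p = 0.158). The wild type call for Rfc4 ended without untreated replicate 2, without RA replicate 1 and under quantile normalization. With equal totals Rfc4 stood at 0.11 in wild type, not called, and at 0.44 in GLP 3A, called higher, and Rfc2 at 0.06 in GLP 3A, and the wild type call for Rfc2 ended.

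Of the single-strand binding subunits, Rpa2 fell more than Rpa1. Rpa2 was at 85.9 and 86.4 RPKM and then 40.1 and 42.5 in wild type, and 87.9 and 87.4 and then 38.0 and 37.4 in GLP 3A, with differences of -1.04 ± 0.06 (adjusted p = 2.7e-05) and -1.20 ± 0.06 (adjusted p = 1.8e-05). Rpa1, the large subunit, was at 107.8 and 106.8 and then 81.2 and 83.2, and 135.8 and 131.4 and then 112.3 and 92.3, called at -0.38 ± 0.10 (adjusted p = 0.0129) and -0.39 ± 0.10 (adjusted p = 0.0114). The Rpa1 call in wild type ended without either untreated wild type library or RA replicate 1, that in GLP 3A without untreated replicate 1, and with equal totals Rpa1 stood at 0.09 and 0.25. Quantile normalization ended its wild type call and gave 0.11 in GLP 3A. The Rpa1 to Rpa2 ratio was 1.25 and 1.24 in untreated wild type and 2.02 and 1.96 with RA, and 1.54 and 1.5 and then 2.96 and 2.47 in GLP 3A.

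Ung, the glycosylase that cuts uracil out of DNA, had the largest fall of the 39 in both genotypes. It was at 86.0 and 86.3 RPKM and then 23.1 and 21.1 in wild type. In GLP 3A Ung was at 103.9 and 94.3 and then 22.7 and 20.5. The RA level was 25.6% and 21.8% of the untreated mean, with log2 differences of -1.92 ± 0.09 (adjusted p = 1.2e-05) and -2.15 ± 0.09 (adjusted p = 1e-05). Lig1, which seals Okazaki fragments, went from 119.7 and 115.7 RPKM to 61.3 and 53.3 in wild type and from 125.9 and 123.9 to 55.0 and 50.4 in GLP 3A, at -1.03 ± 0.09 (adjusted p = 0.00012) and -1.23 ± 0.09 (adjusted p = 5.8e-05); it shares its locus with 6330408A02Rik. Fen1, the flap nuclease, went from 58.4 and 57.9 to 42.2 and 44.0 in wild type and from 64.3 and 58.5 to 41.9 and 40.2 in GLP 3A, called at -0.42 ± 0.07 and -0.57 ± 0.07. With equal totals Fen1 stood at 0.05 and 0.06. Ung lay above Fen1 in all 4 untreated libraries and below it in all 4 RA libraries.

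Among the nucleotide supply genes the subunits of ribonucleotide reductase differed. Rrm2, the small subunit whose level is known to follow S phase, was at 215.1 and 197.5 RPKM and then 102.3 and 104.1 in wild type, and 230.4 and 230.8 and then 87.5 and 108.1 in GLP 3A, with differences of -0.99 ± 0.11 (adjusted p = 0.00033) and -1.24 ± 0.11 (adjusted p = 0.00013). Rrm1, the large subunit, was at 78.9 and 71.8 and then 68.6 and 68.3 in wild type, not called at -0.14 ± 0.07 (adjusted p = 0.143). In GLP 3A Rrm1 went from 69.3 and 66.8 to 53.2 and 57.0, called at -0.30 ± 0.07 (adjusted p = 0.01), and the call ended without untreated replicate 1. Rrm2 was 2.73 and 2.75 times as high as Rrm1 in untreated wild type and 1.49 and 1.52 times with RA, and 3.33 and 3.46 and then 1.64 and 1.90 times in GLP 3A. Tyms, which makes thymidylate, was at 17.1 and 16.1 and then 13.0 and 13.6 RPKM in wild type, and 18.7 and 18.6 and then 11.4 and 12.2 in GLP 3A, called at -0.30 ± 0.07 (adjusted p = 0.00841) and -0.62 ± 0.07 (adjusted p = 0.00035). The wild type call for Tyms ended without untreated replicate 1. With equal totals Rrm1 was called higher in both genotypes, at 0.34 and 0.33. Tyms then stood at 0.15 in wild type, and its calls ended in both genotypes. Quantile normalization put Rrm1 at 0.06 in GLP 3A, not called.

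Other genes of the same pathways were mostly lower as well. Of all genes tested, 34.8% were called lower and 33.7% higher in wild type, and 38.1% and 32.3% in GLP 3A. Of 15 other licensing genes tested, 13 were called lower and 0 higher in wild type and 15 and 0 in GLP 3A, with medians of -0.73 and -0.81. Orc1, the remaining subunit of the origin recognition complex, went from 24.4 and 21.9 RPKM to 9.05 and 7.51 in wild type and from 24.5 and 25.2 to 8.42 and 6.10 in GLP 3A, and Cdk2, an S phase kinase, was called lower at -0.98 and -1.21. Of 29 other fork genes, 18 were lower and 3 higher in wild type, and 20 and 1 in GLP 3A, with Dna2, Tipin and Uhrf1 lower at -1.20, -1.17 and -1.16 in wild type. The 3 called higher in wild type, named after their values were seen, were Pold4, Rnaseh2c and Chtf8, and Pold4 was the 1 in GLP 3A. Of 30 other nucleotide supply genes, 19 were lower and 3 higher (Tk2, Cda and Ctps2) in wild type and 23 and 2 (Tk2 and Cda) in GLP 3A. These genes too were named after their values were seen. Shmt1, of one-carbon metabolism, was called at -1.91 and -2.24, and Hprt, of purine salvage, at -1.69 and -1.77. In the list for base excision repair, which includes Parp1 at -1.45 and -1.71, 7 of 14 were lower and 2 higher in wild type and 8 and 2 in GLP 3A. The glycosylase genes Smug1 and Neil3, the latter named after its values were seen, were the 2 called higher in both genotypes, and Smug1, which like Ung removes uracil, was at 1.37 and 0.98.

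Mitotic genes and cell cycle regulators gave other counts. Of 26 mitotic genes 16 were called lower and 0 higher in wild type and 22 and 0 in GLP 3A, with medians of -0.31 and -0.53, nearer zero than the -0.76 and -0.88 of the 39 genes. Ccnb1 moved by -0.88 and -1.08. The difference between the lists was not tested. Of 28 E2F and cell cycle control genes 10 (35.7%) were lower and 13 (46.4%) higher in wild type, against 34.8% and 33.7% of all genes tested. In GLP 3A 13 (46.4%) were lower and 10 (35.7%) higher, against 38.1% and 32.3%. The inhibitors Cdkn1c, Cdkn2b and Cdkn2a were called higher at 3.94, 3.43 and 2.91 in wild type and 3.16, 2.96 and 1.95 in GLP 3A. E2f1, an activator of replication genes that was singled out after its values were seen, was at 28.7 and 29.0 RPKM and then 12.6 and 12.7 in wild type, and 29.4 and 26.3 and then 13.2 and 11.5 in GLP 3A. Rb1, an E2F repressor, singled out in the same way, was at 2.74 and 3.21 and then 5.48 and 5.76, and 2.83 and 2.98 and then 6.53 and 6.21. Other E2F and Rb family genes of the list, also named after their values were seen, went both ways. By group mean E2f2, E2f3, E2f4, E2f8 and Rbl1 were lower with RA in both genotypes, and E2f5, E2f6, E2f7 and Rbl2 higher. In wild type the mean of E2f4 went from 108.3 to 49.3 RPKM and that of E2f6 from 10.5 to 22.6. A part of these factors in the fall was not tested.

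Without RA the genotypes differed in few of the 39 genes. In GLP 3A 2 were called higher, against 7.52% of all genes tested, and 3 lower, against 4.15%. The median of the 39 was -0.02, and that of all genes 0.04. Pold1 was at 61.9 and 62.6 RPKM in wild type and 87.3 and 79.0 in GLP 3A, a log2 difference of 0.41 ± 0.09 (adjusted p = 0.0371). Gins1 was at 71.0 and 70.3 against 83.8 and 83.9, at 0.24 ± 0.06 (adjusted p = 0.0422). Mcm3 was at 233.2 and 205.8 against 159.6 and 148.5, at -0.51 ± 0.11 (adjusted p = 0.0398). Orc2 was at 62.1 and 61.0 against 49.0 and 49.0, at -0.32 ± 0.06 (adjusted p = 0.0232), and Prim2 at 30.9 and 29.6 against 24.9 and 25.4, at -0.26 ± 0.06 (adjusted p = 0.0452). Every one of the 5 calls ended when any of the 4 untreated libraries was left out, with 0 of the 39 called in each case. Median-of-ratios, quantile and equal-total scaling each ended the calls of Pold1 and Gins1, and quantile scaling that of Mcm3.

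With RA 4 members were called lower in GLP 3A than in wild type, against 5.31% of all genes tested, and 0 higher, against 5.3%. The median was -0.13, and that of all genes -0.01. Mcm3 was at 98.0 and 88.3 RPKM in wild type and 65.5 and 55.2 in GLP 3A, at -0.62 ± 0.11 (adjusted p = 0.0277), and Orc2 at 26.9 and 28.1 against 19.4 and 20.3, at -0.45 ± 0.06 (adjusted p = 0.0139). Prim2 was at 18.4 and 18.5 against 14.5 and 14.9, at -0.31 ± 0.06 (adjusted p = 0.0307), and Rrm1 at 68.6 and 68.3 against 53.2 and 57.0, at -0.31 ± 0.07 (adjusted p = 0.0484). The Rrm1 call held under only 3 of the 20 alternatives run, with adjusted p from 0.0376 to 0.234, and equal totals ended that of Prim2 too. No member was called without wild type RA replicate 2 or from the 4 RA libraries alone. Orc2 was the only member called without any 1 untreated library or without wild type RA replicate 1, Orc2 and Mcm3 were called without GLP 3A RA replicate 1, and 7 members without GLP 3A RA replicate 2. The 2 genotype comparisons use different libraries.

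The members called lower in GLP 3A lay largely on chromosome 1. Mcm3, Mcm6, Orc2 and Prim2 are the 4 members there, and 3 were called lower in each state, where 20.8% (untreated) and 29.9% (with RA) of all genes tested on chromosome 1 were. Mcm6 was at 168.6 and 155.9 RPKM in the untreated wild type and 139.0 and 134.1 in GLP 3A, and at 91.7 and 83.6 against 70.4 and 71.0 with RA, not called at -0.25 ± 0.07 (adjusted p = 0.0849) and -0.31 ± 0.07 (adjusted p = 0.0521). The median of these 4 was -0.29 untreated and -0.38 with RA. The median of all 710 genes tested on chromosome 1 was -0.24 and -0.31. The 2 members on chromosome 11, Cdc6 and Rpa1, had medians of 0.25 and 0.15, where the 1114 genes tested there had 0.24 in both states. Of the 33 members on other chromosomes, 2 (6.06%) were called higher untreated, against 6.58% of all 11374 genes tested there. With RA 1 of them (3.03%) was called lower, against 4.18%. Their medians were 0.01 untreated and -0.13 with RA, against 0.04 and -0.02 for all genes there. Whether gene dosage differs between the lines was not tested, and line and genotype cannot be told apart.

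**Figure D4:**
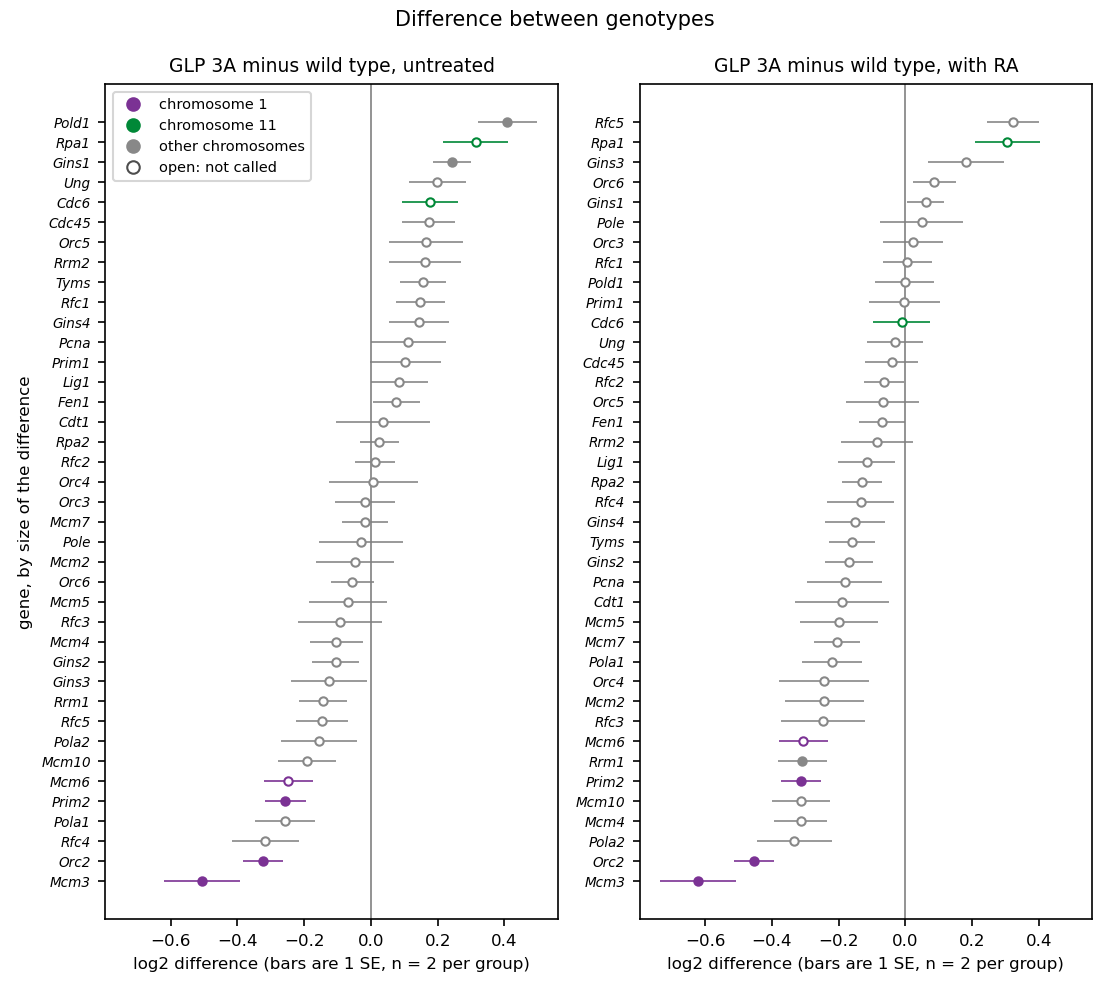
Log2 difference in log2(RPKM + 1) between GLP 3A and wild type for the 39 genes, untreated (left) and with RA (right), each panel sorted by size; bars are 1 SE (n = 2 per group), filled symbols were called, purple is chromosome 1, green chromosome 11 and grey all others. The 4 genes on chromosome 1 lie to the left of zero in both panels, with Mcm3 lowest at -0.51 and -0.62.

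The other genes of replication stand beside 7.52% of all genes called higher and 4.15% lower untreated, and 5.3% and 5.31% with RA. Untreated, 1 of 15 licensing genes was called higher, 3 of 29 fork genes higher and 1 lower, and 2 of 30 nucleotide supply genes higher. With RA 1 licensing gene was higher, 2 fork genes lower, and 2 nucleotide supply genes higher and 5 lower. Mcm8, an MCM family member of recombination repair, measured 6.47 and 6.00 RPKM in wild type without RA, against a mean of 10.2 ± 0.31 (SD, n = 2) in GLP 3A, called higher at 0.64 ± 0.10 (adjusted p = 0.0129) and, with RA, at 0.44 ± 0.10 (adjusted p = 0.0424). Exo1, a nuclease gene on chromosome 1, was lower at -0.32 and -0.49, and so, with RA, were Atic and Dtymk, of purine and thymidylate supply and also on chromosome 1, at -0.68 and -0.53. Dut, which keeps dUTP low, was higher with RA at 0.53. Of these, only the call for Atic held when each library was left out in turn.

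The response to RA itself was not shown to differ between genotypes for any of the 39 genes. The difference of the 2 responses was tested as an interaction in limma, and 0 members were called, against 1.8% of all genes tested. An unadjusted p under 0.05 was found for 3 members, against 2764 of the 13198 genes tested. Under each of the other settings run, 0 members were called. The difference, GLP 3A minus wild type, was below zero in 32 of the 39 genes and in 7651 of the 13198 tested, with medians of -0.16 and -0.06. With equal totals the median difference of the members was 0.01. Rfc5 went the other way, with a fall 0.47 ± 0.11 smaller in GLP 3A (95% interval 0.20 to 0.74, adjusted p = 0.0875). For Pold1 the difference was -0.41 ± 0.13 (95% interval -0.72 to -0.10, adjusted p = 0.144), and for Tyms -0.32 ± 0.10 (adjusted p = 0.147). The 95% intervals of all 39 differences lay within 1 log2 unit of zero, between -0.72 for Pold1 and 0.74 for Rfc5. A 2-fold difference in response thus lies outside each gene's interval. Smaller differences that fall inside a gene's own interval are not excluded for that gene. Across the 39 genes the responses of the 2 genotypes, which share no library, had a Pearson's r of 0.94 and a Spearman's rho of 0.94, and r was 0.88 over all genes tested. Genes are not independent replicates, and these values describe likeness only.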

How the data were processed

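RNA-seq of mouse embryonic stem cells was read from 8 deposited tables, 1 per library, which hold RPKM for each symbol and its locus, per the file headers. Bowtie 0.12.7, TopHat, Cufflinks, SAMtools and mm9 are listed in the submitters' processing notes. What each tool did, the strand setting and the handling of overlapping genes are not stated there. RPKM keeps no read counts and steps between low values did not settle relative depth, so no counting interval is given. The 13198 genes reaching 1 RPKM in 2 or more libraries were fitted as log2(RPKM + 1), which understates changes of low genes, with limma 3.58.1 in R 4.3.3: 4 group means over 8 libraries, empirical Bayes with an intensity trend, two-sided, Benjamini-Hochberg adjustment over all genes tested, called under 0.05. The fit was tested on simulated data. Alternatives changed the pseudocount, filter, scaling, variance model, replicate block, chromosomes or libraries. All 39 members are reported. From each other list and comparison, up to 4 called and 2 uncalled genes with the largest absolute difference could be named, and exceptions are marked. The members and lists were chosen with earlier results of these data known. Libraries of histone marks and input DNA were not used here.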

Additional observations from a re-analysis of the deposited data

Results flagged for a closer look

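No member was picked out. Of the cell cycle and mitosis genes set beside the members, 3 had a response to RA that differed between genotypes by the limma interaction test. They were 2 of 28 E2F and cell cycle control genes and 1 of 26 mitotic genes, against 1.8% of all genes tested. Of the licensing, fork, nucleotide supply and base excision repair genes set beside the members, 0 were called. Mycn, a MYC family factor of proliferation, was at 53.2 and 48.5 RPKM and then 31.5 and 27.2 in wild type, and at 101.0 and 93.1 and then 11.5 and 16.5 in GLP 3A, a difference of responses of -1.954 ± 0.23 (adjusted p = 0.0238). Over the alternatives it ran from -2.196 to -1.712, with adjusted p from 0.00599 to 0.161, and it was called in 12 of 19. Cdkn1a, which encodes the cell cycle inhibitor p21, was at 83.0 and 83.2 and then 106.6 and 113.1 in wild type, and at 72.5 and 68.8 and then 147.4 and 154.8 in GLP 3A, a difference of 0.688 ± 0.09 (adjusted p = 0.031). It ran from 0.645 to 0.849, with adjusted p from 0.0192 to 0.181, and was called in 13 of 19. Aurkb, a mitotic kinase, was at 49.8 and 50.6 and then 52.6 and 52.0 in wild type, and at 63.5 and 63.0 and then 43.9 and 47.1 in GLP 3A, a difference of -0.524 ± 0.09 (adjusted p = 0.0463). It ran from -0.573 to -0.364, with adjusted p from 0.0238 to 0.228, and was called in 4 of 18. All 3 calls ended when any 1 untreated library or wild type RA library was left out. Groups of 2 libraries allow no test for a library that stands apart.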

How the results depend on the processing

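Each group had 2 libraries, and the variance of each gene rests on 4 residual degrees of freedom, so small differences may be missed; the cause was not tested for any change below. Scaling to equal RPKM totals turned the RA difference of 10 members in wild type: Orc4 0.316 and Gins3 0.244, called in neither fit, and Orc3 0.022, Cdc6 0.283, Cdc45 0.064, Rfc4 0.105, Rpa1 0.093, Fen1 0.045, Rrm1 0.337 and Tyms 0.148. In GLP 3A it turned Orc3 0.21, Orc4 0.217, Orc6 0.223, Cdc6 0.25, Cdc45 0.007, Gins2 0.569, Rfc2 0.055, Rfc4 0.443, Rpa1 0.247, Fen1 0.059, Rrm1 0.332 and Aurkb 0.163, and quantile normalization turned Gins2 0.285, Rpa1 0.107 and Rrm1 0.062. The median of the members in wild type was -0.774 with a pseudocount of 0.1, -0.291 with equal totals, -0.73 with median-of-ratios and -0.534 with quantile scaling. In GLP 3A it was -0.919 and -0.903 with pseudocounts of 0.1 and 0.5, then -0.274, -0.795 and -0.57. Between genotypes the untreated median of the members was -0.088, -0.079 and -0.068 under those 3 scalings and 0.007 without chromosomes 1 and 11, and with RA -0.053, -0.143 and -0.103. The median difference of responses of the members was 0.005, -0.098 and -0.056. Untreated, 3 members were called between genotypes with no filter, median-of-ratios scaling, no trend and a robust fit, 2 with quantile scaling or without chromosomes 1 and 11, and 8 from 4 libraries alone. With RA 2 were called with no filter and 0 without chromosomes 1 and 11 or from 4 libraries alone. Leaving out 1 library at a time, members called ranged from 31 to 34 in wild type, 30 to 35 in GLP 3A, 0 to 6 between untreated genotypes, 0 to 7 between RA-treated ones and 0 to 0 for the difference of responses. Their medians ranged from -0.756 to -0.701, -0.914 to -0.867, -0.017 to 0.010, -0.135 to -0.095 and -0.164 to -0.107.

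The fit with a replicate block called 35 members in wild type, adding Cdc6 and Rfc3, 35 in GLP 3A, 3 between untreated genotypes, losing Gins1 and Prim2, 6 between RA-treated ones, losing Rrm1 and adding Mcm6, Pola2 and Rfc5, and 0 for the difference of responses. Same-numbered libraries had deviations that correlated at 0.169 to 0.355 over all genes and at 0.058 to 0.663 over the members. There are only 2 numbers per group, and what same-numbered libraries share beyond the number is not stated.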
